A study of Caenorhabditis elegans with 4 samples.

Results

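Sirtuins and enzymes that write or erase histone methylation are among the chromatin genes best known for effects on lifespan in *C. elegans*. A set of 9 such genes was chosen for what the genes do and found by gene name among the 46766 genes of the deposited table. The rule uses no measured value, but it was set with earlier results of these data known. It holds 4 sirtuin genes (sir-2.1, sir-2.2, sir-2.3 and sir-2.4), 3 genes for the complex that methylates lysine 4 of histone H3 (H3K4), which are set-2, ash-2 and wdr-5.1, and 2 histone demethylase genes, rbr-2 and utx-1. RNA-seq was performed on wild-type N2 worms, the standard laboratory strain, at 22 days of age, with 2 libraries from worms treated with Gengnianchun (GNC) at 3.94 mg/mL and 2 from water-treated control worms. GNC is a Chinese herbal formula, used here as a mixture of water extracts. Both groups were synchronized, fed *E. coli* OP50 and, by the sample protocols, kept in S-complete liquid medium, whereas the design text of the series names NGM. N2 carries no transgene or engineered allele, and whole worms were sequenced, so a count per gene sums all tissues. Nothing in the sample descriptions says whether the 2 libraries of a group came from separate cultures, and p-values then measure the spread between these libraries, which may be technical.

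Sirtuins are enzymes that remove acetyl or other acyl groups from proteins and consume NAD+ in doing so. In worms, SIR-2.1 is the nuclear sirtuin studied most for lifespan, SIR-2.2 and SIR-2.3 are mitochondrial proteins related to mammalian SIRT4, and SIR-2.4 is related to mammalian SIRT6 and SIRT7. Methylation of H3K4 marks the promoters of active genes. SET-2 is the worm methyltransferase for this mark, ASH-2 and WDR-5.1 are subunits of the same complex, and lowering any of them has been linked to longer life through an effect that needs the germline. RBR-2 removes methyl groups from H3K4. UTX-1 acts on another residue, lysine 27 of H3, so the set is not confined to H3K4.

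Library totals ranged from 18639631 to 21753657 counts, and the 9 genes had between 74 and 4477 counts in a library. Levels of 1 gene in different libraries are given in CPM, which is its count relative to the library total after TMM scaling. Groups were compared in edgeR's quasi-likelihood test over 16341 genes with enough counts for the fit, and all 9 genes were among them. Adjusted p-values are by the Benjamini-Hochberg method over all genes tested, and a gene was counted as changed at an adjusted p under 0.05. The replicates of a group differed by a median of 0.10 in GNC-treated worms and 0.12 in control worms on the log2 scale, over all genes tested.

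No member of the set changed 2-fold, but 5 of the 9 genes changed by smaller amounts. One of them, sir-2.2, was higher in GNC-treated worms, and the other 4, wdr-5.1, sir-2.4, sir-2.1 and utx-1, were lower. The 5 genes are 55.6% of the set, where 40.4% of all genes tested passed the same threshold (19.8% higher and 20.5% lower), so changes of this kind were common in these libraries. At an adjusted p under 0.05 and at least 2-fold, 7.20% of all genes tested were called, against 0 of the 9. DESeq2 and limma also called 0 of the 9 at 2-fold. Before adjustment, edgeR's p was below 0.05 for 6 of the 9, beside 7935 of the 16341 genes tested. The GNC and control libraries did not overlap in 6 of the 9 genes, beside 71.0% of all genes tested. The median log2 fold change was -0.17 over the 9 genes and 0.02 over all genes tested. The split of the changed genes into 1 higher and 4 lower moved with the scaling of the libraries, and it was 1 and 2 with library totals or upper quartile normalization.

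**Figure D1:**
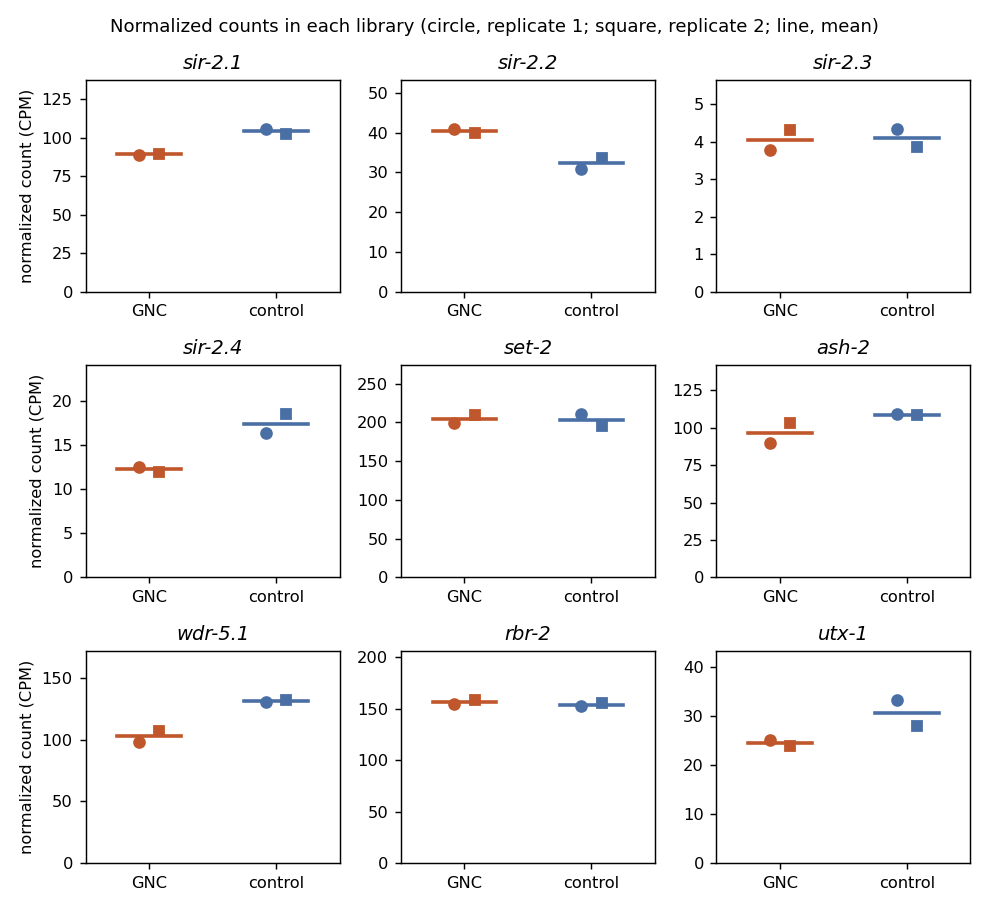
Normalized counts (CPM, vertical axes from 0) of the 9 genes in the 2 GNC libraries (left in each panel) and the 2 control libraries (right), with replicate 1 as a circle, replicate 2 as a square and the group mean as a line. Both GNC libraries lie above both control libraries for sir-2.2 and below them for sir-2.1, sir-2.4, ash-2, wdr-5.1 and utx-1, while the groups overlap for sir-2.3, set-2 and rbr-2.

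Among the sirtuins, sir-2.1 (WBGene00004800, chromosome IV, 10363321 to 10366229, build WBcel235) was the most abundant. It had 88.7 and 89.5 CPM in GNC-treated worms, against 106 and 102 CPM in control worms. The groups did not overlap, and the gap between them (12.98 CPM) was wider than the gap between replicates in either group (0.81 CPM in GNC-treated worms and 3.34 CPM in control worms). Its level fell by 14.45%, a log2 fold change of -0.23 (SE 0.06, 95% interval -0.35 to -0.10, adjusted p = 0.0106 in edgeR's test). In the table its span shares 11 bases with ugt-59, which had at most 49 counts in a library. The call was kept in 10 of 16 alternatives, with adjusted p from 0.000743 to 0.161 and log2 fold changes from -0.36 to -0.12. It was lost with upper quartile normalization, library totals, expression-dependent offsets, no filter on low counts and both limma fits.

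The mitochondrial sirtuin gene sir-2.2 (WBGene00004801, chromosome X, 13328258 to 13331244) was the only one of the 9 that rose. It had 41.02 and 39.9 CPM in GNC-treated worms, against 31.0 and 33.6 CPM in control worms. Both GNC libraries were above both control libraries, with a log2 fold change of 0.33 (SE 0.08, 95% interval 0.15 to 0.50, adjusted p = 0.00862 in edgeR's test), or 1.25-fold. The estimate was positive under every one of 16 alternatives, from 0.19 to 0.43, and passed the threshold in 14. Without a filter on low counts the adjusted p was 0.0731, and with the libraries scaled to the same median it was 0.0694.

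Its neighbour sir-2.3 (WBGene00004802, chromosome X, 13332016 to 13333689) starts 771 bases downstream of sir-2.2 and encodes the other mitochondrial sirtuin. It was far less abundant, with 3.77 and 4.32 CPM in GNC-treated worms, against 4.35 and 3.86 CPM in control worms. The groups overlapped. Its counts were 85 and 90 in GNC-treated worms and 79 and 74 in control worms, and at this depth the 95% interval of its log2 fold change was wide, from -0.44 to 0.40 (estimate -0.02, adjusted p = 0.940 in edgeR's test). A change of the size seen in sir-2.2 lies within this interval. The sign of the estimate turned under several scalings, so no direction is given.

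The relation within this tandem pair was also compared directly in each library. The ratio of sir-2.2 to sir-2.3 in CPM was 10.9 and 9.24 in GNC-treated worms, against 7.13 and 8.69 in control worms. CPM is not corrected for gene length, so this ratio is read only between libraries, not as a ratio of levels. The mean log2 ratio was higher by 0.35 in GNC-treated worms, but an exact two-sided permutation test of 2 libraries against 2 gave p = 0.333, the smallest p that this design allows. The ratios did not overlap between the groups, and with so few libraries the test could not have passed the threshold, so it says nothing either way on a difference in response between the 2 genes. They are related in sequence, so the counting could have divided reads between them. Whether this happened was not tested. Their summed level was 44.8 and 44.3 CPM in GNC-treated worms, against 35.3 and 37.4 CPM in control worms. Most of the sum is sir-2.2, with 41.02 and 39.9 CPM in GNC-treated worms and 31.0 and 33.6 CPM in control worms. That the sum did not overlap between groups therefore largely follows from sir-2.2 and is no separate result.

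The lowest fold change of the set was that of sir-2.4 (WBGene00004803, chromosome I, 5990739 to 5992668), which has been tied in worms to the localization of DAF-16 under stress. It had 12.5 and 12.004 CPM in GNC-treated worms, against 16.3 and 18.5 CPM in control worms. Every GNC library was below every control library, and on the log2 scale the fold change was -0.51 (SE 0.11, 95% interval -0.76 to -0.26, adjusted p = 0.00565 in edgeR's test), which leaves 0.703 of the control level. Of 16 alternatives, 15 kept the call, and without a filter on low counts the adjusted p was 0.0748. The summed CPM of the 4 sirtuin genes, not corrected for gene length, was 146 and 146 in GNC-treated worms, against 157 and 158 in control worms. Most of this sum is sir-2.1, with 88.7 and 89.5 CPM in GNC-treated worms and 106 and 102 CPM in control worms. The sum also pools sir-2.2, which was higher, with sir-2.1 and sir-2.4, which were lower. It was not computed under other scalings and is not read as a change of the family.

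In the H3K4 methyltransferase complex, wdr-5.1 passed the threshold, and set-2 and ash-2 did not. The methyltransferase gene set-2 (WBGene00004782, chromosome III, 4922446 to 4930204) had the highest CPM of the 9. Its level was 199 and 210 CPM in GNC-treated worms, against 210 and 195 CPM in control worms. The groups overlapped almost completely. The log2 fold change was 0.01 (SE 0.06, adjusted p = 0.915 in edgeR's test), with 3741 or more counts in each library and a 95% interval from -0.13 to 0.15, which leaves room for small changes. The annotation used here lists 3 transcripts of this gene, and the counts do not tell them apart.

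The WD-repeat subunit gene wdr-5.1 (WBGene00006474, chromosome III, 3705265 to 3706785) had the smallest p-value of the 9. It had 98.1 and 107 CPM in GNC-treated worms, against 131 and 132 CPM in control worms. The gap between the groups was 23.4 CPM, where the replicates lay 9.21 CPM apart in GNC-treated worms and 1.65 CPM apart in control worms. This is a log2 fold change of -0.36 (SE 0.06, 95% interval -0.49 to -0.22, adjusted p = 0.00146 in edgeR's test), so 0.780 of the control level was left. It was the only one of the 9 whose call held under all 16 alternatives, with adjusted p from 0.000168 to 0.0464.

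For ash-2 (WBGene00012458, chromosome II, 11980426 to 11988861), the level was 90.2 and 103 CPM in GNC-treated worms, against 109 and 109 CPM in control worms. Both GNC libraries were below both control libraries, but they differed from each other by 12.8 CPM, more than the 5.79 CPM between the groups. The log2 fold change was -0.17 (SE 0.07, 95% interval -0.33 to -0.02) and it missed the threshold (adjusted p = 0.0723 in edgeR's test). GNC replicate 1 was the lowest library, and without it the log2 fold change was -0.08 (adjusted p = 0.494). Without GNC replicate 2 it was -0.27, and the adjusted p of 0.0119 was past the threshold. The difference between the responses of ash-2 and wdr-5.1 was not tested.

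Of the 2 demethylase genes, utx-1 passed the threshold and rbr-2 did not, and the difference between their responses was not tested. The H3K4 demethylase gene rbr-2 (WBGene00004319, chromosome IV, 10920107 to 10926797) had 154 and 159 CPM in GNC-treated worms, against 153 and 156 CPM in control worms. All 4 libraries lay within a few CPM of each other, and the log2 fold change was 0.02 (SE 0.06, 95% interval -0.10 to 0.14, adjusted p = 0.783 in edgeR's test). Its span shares 524 bases with dnc-1 on the opposite strand, which had from 4960 to 5419 counts in a library. No source says that reads were assigned by strand, so reads in the shared stretch are uncertain.

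The H3K27 demethylase gene utx-1 (WBGene00017046, chromosome X, 8557151 to 8563238) fell in GNC-treated worms, with 24.9 and 23.9 CPM, against 33.2 and 27.8 CPM in control worms. The groups did not overlap, but the control libraries differed by 5.41 CPM, more than the 2.88 CPM between the groups. Its log2 fold change was -0.32 (SE 0.10, 95% interval -0.55 to -0.09, adjusted p = 0.0298 in edgeR's test). The higher control library, replicate 1, carried much of it. Without that library the log2 fold change was -0.19 (adjusted p = 0.173), and without GNC replicate 2 the adjusted p was 0.0931. In DESeq2 the adjusted p was 0.0652, and over all alternatives it ranged from 0.00337 to 0.283, with the call kept in 8 of 16.

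**Figure D2:**
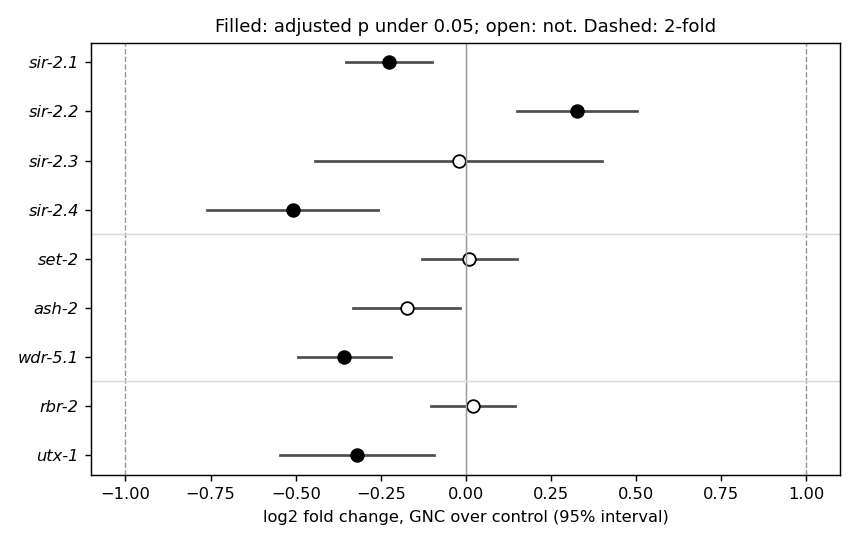
Log2 fold change of each gene, GNC over control (horizontal axis), with its 95% interval from edgeR's quasi-likelihood fit. Filled points had an adjusted p under 0.05, dashed lines mark a 2-fold change, and the grey lines separate sirtuins, methyltransferase complex and demethylases. The estimates run from -0.51 for sir-2.4 to 0.33 for sir-2.2, and no interval reaches a 2-fold change.

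The balance between writing and erasing H3K4 methylation was compared at the RNA level by the ratio of set-2 to rbr-2 within each library. The ratio in CPM, not corrected for gene length, was 1.29 and 1.32 in GNC-treated worms, against 1.38 and 1.25 in control worms. The GNC libraries lay between the control libraries. The mean log2 ratio differed by -0.01, GNC minus control (exact two-sided permutation test, p = 1), and its sign turned when single libraries were left out.

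Levels of different genes can be compared only per gene length, for which the FPKM values of the authors were used. The most abundant of the 9 per length was wdr-5.1, with 74.6 and 81.5 FPKM in GNC-treated worms, against 93.6 and 92.7 FPKM in control worms, at the percentile 91.4 of all genes tested by mean FPKM. Next came sir-2.1 (37.3 and 37.5 FPKM in GNC-treated worms, 41.9 and 39.6 FPKM in control worms) and ash-2 (35.5 and 40.5 FPKM in GNC-treated worms, 40.5 and 39.5 FPKM in control worms). The ranges of these 2 genes overlapped in both groups, so their order is not resolved. Below them was set-2, with 32.3 and 34.0 FPKM in GNC-treated worms, against 32.2 and 29.2 FPKM in control worms. It lay above rbr-2 in each library, by less than its own range over the 4 libraries, and rbr-2 had 30.6 and 31.5 FPKM in GNC-treated worms, against 28.5 and 28.4 FPKM in control worms. The range of sir-2.2 overlapped that of rbr-2 in GNC-treated worms (31.4 and 30.5 FPKM) and lay below it in control worms (22.3 and 23.7 FPKM). The lower end was held by sir-2.4 (14.0 and 13.4 FPKM in GNC-treated worms, 17.2 and 19.1 FPKM in control worms), utx-1 (6.57 and 6.29 FPKM in GNC-treated worms, 8.24 and 6.75 FPKM in control worms) and sir-2.3 (4.52 and 5.17 FPKM in GNC-treated worms, 4.91 and 4.26 FPKM in control worms). FPKM is scaled by library totals, without TMM. On that scale rbr-2 and set-2 were higher in both GNC libraries than in both control libraries, whereas in CPM their groups overlapped. The groups of ash-2 overlapped in FPKM and did not in CPM.

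**Figure D3:**
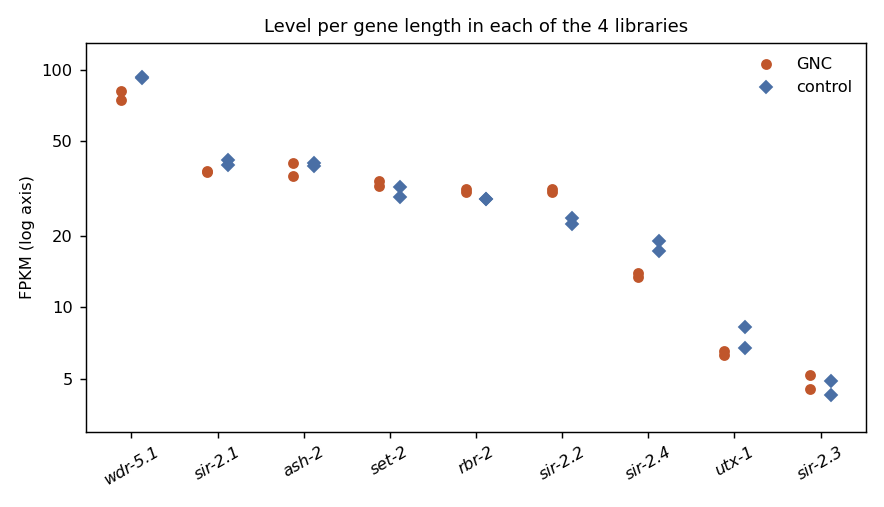
FPKM of each gene (log axis) in the 2 GNC libraries (circles, left) and the 2 control libraries (diamonds, right), with genes ordered by their mean over the 4 libraries. From wdr-5.1 to sir-2.3 the mean falls from 85.6 to 4.72 FPKM, and neighbours such as sir-2.1 and ash-2 overlap.

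The other genes of these pathways were described with 8 lists of 64 genes in all, every one of which was tested. Of the 64, 29 were lower and 4 higher in GNC-treated worms at an adjusted p under 0.05, or 51.6% beside 40.4% of all genes tested. Their median log2 fold change was -0.17, against 0.02 over all genes tested. Less the median of all genes tested, this value was -0.18 in the reported fit and below 0 under each of the 16 alternatives. It was nearest to 0 with expression-dependent offsets, at -0.06. The counts depended on the scaling, with 15 lower and 5 higher with library totals, and with 7 lower and 5 higher in limma on log2(FPKM + 0.1). For the single lists below, the shares over all genes tested to read them against are 20.5% lower and 19.8% higher. A single gene of the 64, jmjd-3.2, changed at least 2-fold.

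Among 10 partners of the H3K4 methyltransferases, 4 were lower and 1 was higher. Over the alternatives from 1 to 6 were lower and from 0 to 2 higher, with 2 lower and 2 higher under upper quartile normalization, library totals or expression-dependent offsets. The strongest result was dpy-30, a core subunit shared by such complexes, with 138 and 138 CPM in GNC-treated worms, against 173 and 188 CPM in control worms (log2 fold change -0.39, adjusted p = 0.000842 in edgeR's test). The CpG-binding subunit gene cfp-1, which recruits SET-2 to promoters, had 65.5 and 47.4 CPM in GNC-treated worms, against 75.4 and 89.4 CPM in control worms (log2 fold change -0.54, adjusted p = 0.00906), with a wide spread between replicates, and its call was kept in 12 of 16 alternatives. The core subunit gene rbbp-5 was lower by less, with a log2 fold change of -0.18 (adjusted p = 0.037), and was called in 6 of 16 alternatives. The host cell factor gene hcf-1, whose product also binds SIR-2.1 and DAF-16, had a log2 fold change of -0.19 (adjusted p = 0.0313) and was called in 8 of 16. The gene that rose was wdr-5.3, a paralog of wdr-5.1 named here after its values were seen, with a log2 fold change of 0.16 (adjusted p = 0.0451). No partner was called higher in DESeq2, with its size factors in edgeR or without a filter on low counts. The same held with the median fold change of all genes at 0 and with the libraries scaled to the same median.

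The demethylases outside the set included the lowest fold changes of the 64. The gene jmjd-3.2, a worm relative of utx-1 in the JMJD3 group, had 2.31 and 2.02 CPM in GNC-treated worms, against 9.52 and 7.36 CPM in control worms. Its counts were 52 and 42 in GNC-treated worms and 173 and 141 in control worms, and the groups were far apart. The log2 fold change was -1.96 (SE 0.21, adjusted p = 0.000104 in edgeR's test). Its relative jmjd-3.3 had 10.4 and 11.6 CPM in GNC-treated worms, against 19.8 and 20.3 CPM in control worms, a log2 fold change of -0.86 (adjusted p = 0.000282). Both calls held under all 16 alternatives. The third gene of the group, jmjd-3.1, had 39.3 and 45.8 CPM in GNC-treated worms, against 44.7 and 46.4 CPM in control worms, and did not pass the threshold (log2 fold change -0.10, adjusted p = 0.385). These genes are similar in sequence, and whether reads were divided among them was not tested. Of the 9 genes in this list, 5 were lower (2 to 7 over the alternatives), with jmjd-5 at -0.33 and jmjd-1.2, known from lifespan extension by mitochondrial stress, at -0.23, and 1 was higher. That one was jmjd-1.1, named after its values were seen, at 0.67 (adjusted p = 0.0106). It had 6.04 and 6.34 CPM in GNC-treated worms, against 3.69 and 4.07 CPM in control worms. No gene of this list was called higher in DESeq2 or with expression-dependent offsets. Of the 3 LSD1-type demethylase genes, 2 were lower. The gene spr-5 had 59.1 and 56.3 CPM in GNC-treated worms, against 75.9 and 76.0 CPM in control worms (log2 fold change -0.40, adjusted p = 0.000919 in edgeR's test). For lsd-1 the log2 fold change was -0.45 (adjusted p = 0.0124), and it was called in 11 of 16 alternatives. The third, amx-1, had overlapping groups and did not pass the threshold (log2 fold change 0.02, adjusted p = 0.879).

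A list of 12 other genes for histone methyltransferases, their complex subunits and SET-domain proteins had 9 genes lower and none higher. This count was 5 with library totals or expression-dependent offsets and 1 without a filter on low counts or in either limma fit. Here set-9, a nuclear SET-domain gene, had 147 and 164 CPM in GNC-treated worms, against 205 and 218 CPM in control worms (log2 fold change -0.45, adjusted p = 0.000757 in edgeR's test). It closely resembles set-26, so reads of the 2 genes are uncertain. The H3K9 methyltransferase genes set-25 (log2 fold change -0.57, adjusted p = 0.00279) and met-2 (-0.32, adjusted p = 0.00286) fell, as did mes-2 (-0.28, adjusted p = 0.00409), the H3K27 methyltransferase whose mark UTX-1 removes. The classical histone deacetylases were lower in 3 of 8 genes, and in 1 of 8 or fewer with DESeq2, limma, upper quartile normalization, library totals or expression-dependent offsets. The lowest p was that of hda-1, with 144 and 152 CPM in GNC-treated worms, against 190 and 179 CPM in control worms (log2 fold change -0.32, adjusted p = 0.0024). For hda-6 (-0.16, adjusted p = 0.049) and hda-2 (-0.24, adjusted p = 0.0499) the values lay just under the threshold, and each was called in 5 of 16 alternatives.

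Genes that make NAD+ or, as PARPs, consume it like the sirtuins were lower in 6 of 14 cases (2 to 7 over the alternatives) and higher in 1. The PARP gene parp-2 had 97.8 and 107 CPM in GNC-treated worms, against 139 and 139 CPM in control worms (log2 fold change -0.44, adjusted p = 0.000476 in edgeR's test). The gene umps-1, whose enzyme serves pyrimidine synthesis and in worms also a route to NAD+, had a log2 fold change of -0.48 (adjusted p = 0.000442), and nprt-1, listed in the table as Y54G2A.17 and coding for a salvage enzyme, had -0.22 (adjusted p = 0.0105, called in 9 of 16 alternatives). In contrast tdo-2, the first enzyme of tryptophan breakdown, rose to 110 and 107 CPM in GNC-treated worms, against 77.9 and 84.5 CPM in control worms (log2 fold change 0.42, adjusted p = 0.000736). Among 4 partners of SIR-2.1, the 14-3-3 gene ftt-2 was higher (log2 fold change 0.24, adjusted p = 0.0232) and hcf-1 was lower, as given above. Of the 5 mitochondrial biotin carboxylase genes, whose products bind SIR-2.2 and SIR-2.3, none passed the threshold in edgeR's test, and their log2 fold changes ran from -0.14 to -0.01.

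**Figure D4:**
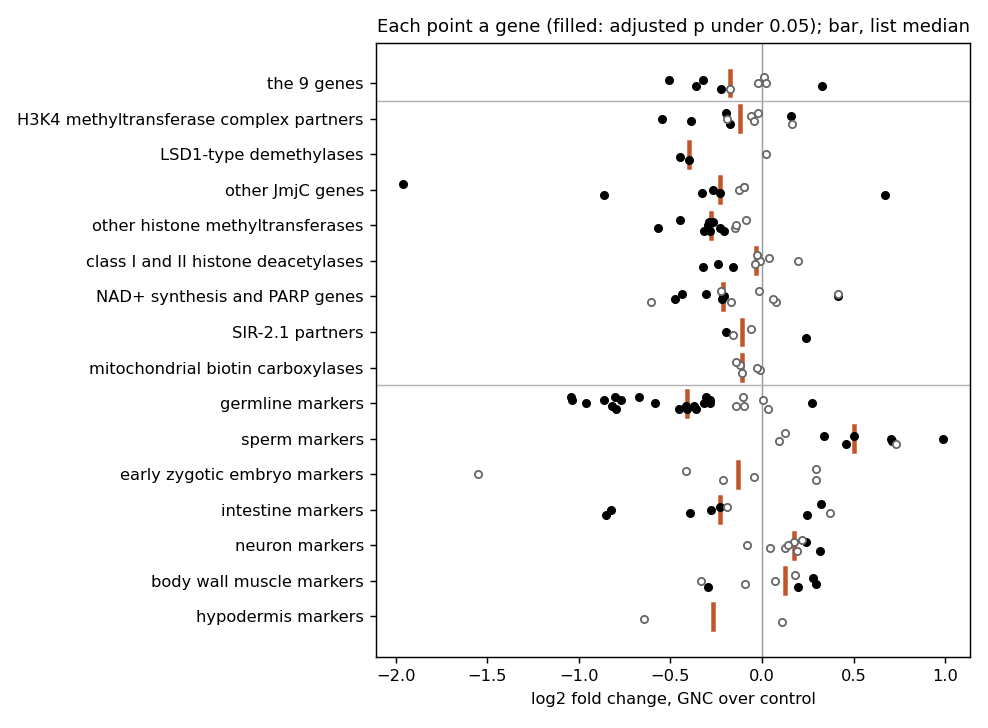
Log2 fold change, GNC over control (horizontal axis), of the 9 genes (top row), of the genes in 8 lists of related pathways (middle) and of the tested genes in 7 lists of tissue markers (bottom). Each point is a gene, filled at an adjusted p under 0.05, and the bar is the median of the list. The germline marker median of -0.41 lies left of the other tissue lists, and the sperm marker median of 0.50 lies furthest to the right.

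Since the H3K4 complex acts in the germline, tissue markers were set beside these values. Germline markers were lower in 19 of 25 genes and higher in 1, and their summed level was 5551 and 5811 CPM in GNC-treated worms, against 7773 and 7967 CPM in control worms. The most abundant of them, gld-1, had a log2 fold change of -0.36 (adjusted p = 0.00244 in edgeR's test), and cpg-2, an eggshell gene made in oocytes, had -1.04 (adjusted p = 1.20e-05). Sperm markers moved the other way, with 6 of 9 genes higher and none lower. Their summed level was 415 and 445 CPM in GNC-treated worms, against 314 and 327 CPM in control worms. Of the 2 most abundant, spe-41 had a log2 fold change of 0.34, and fog-3 (0.10, adjusted p = 0.237 in edgeR's test) did not pass the threshold. Intestine markers were lower in 5 of 9 genes and higher in 2. The 2 most abundant, the yolk protein genes vit-5 and vit-2, had log2 fold changes of -0.83 and -0.39. The 2 that were higher were elt-2 (0.25, adjusted p = 0.0184 in edgeR's test) and act-5 (0.32, adjusted p = 0.00586). Of the neuron markers 2 of 9 were higher and none lower, and of the body wall muscle markers 3 of 8 were higher and 1 was lower. Early embryo genes were low, with 11.99 and 13.01 CPM in sum over 9 genes in GNC-treated worms and 13.7 and 11.8 CPM in control worms, and 5 of 7 hypodermis markers did not pass the filter on low counts. No marker was at 0 in all 4 libraries. In these whole-worm libraries fewer cells of a type and less RNA per cell cannot be told apart, and the part of the germline, sperm and intestine values in the results of the 9 genes was not tested.

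The 3 genes of the 64 whose levels over the 4 libraries were most like those of wdr-5.1 were parp-2, hda-1 and set-26, by the Euclidean distance between log2 CPM values centred on each gene's mean (0.0836, 0.0876 and 0.0978). All 3 were lower in both GNC libraries than in both control libraries, which follows from picking them for likeness to wdr-5.1 and is no separate result. By chromosome, the log2 fold change of the genes tested had a median of 0.06 on X, which holds sir-2.2, sir-2.3 and utx-1, -0.04 on III, with set-2 and wdr-5.1, and 0.05 on IV, with sir-2.1 and rbr-2. The median was -0.015 on I, with sir-2.4, and -0.012 on II, with ash-2. Whether differences between chromosomes had a part in the changes of single genes was not tested.

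**Figure D5:**
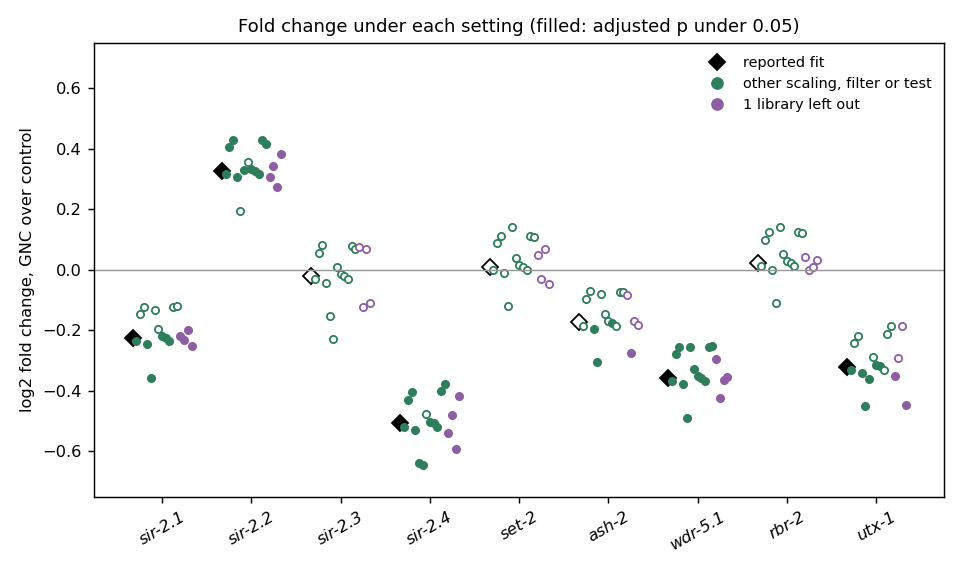
Log2 fold change, GNC over control (vertical axis), of each gene in the reported fit (diamond), under 12 other scalings, filters and tests (green) and with each of the 4 libraries left out (purple). Filled points had an adjusted p under 0.05. The estimates of sir-2.2, sir-2.4, wdr-5.1, sir-2.1, utx-1 and ash-2 stay on one side of 0 in all of these settings, while those of sir-2.3, set-2 and rbr-2 fall on both sides.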

How the data were processed

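RNA-seq libraries of 2 GNC-treated and 2 control samples were analysed. The authors deposited fragment counts per gene, without normalization, and FPKM values per gene. FPKM equalled the count divided by 1 gene length and the library total, to within 1%, in all 10376 genes whose lowest count was 100 or more. The submitters' processing notes name CASAVA 1.8, TopHat2 2.1.0, Cuffdiff and the build WBcel235. The counter, the annotation release and the use of strand are not given in the sources used here. Positions and shared spans are those of the table. Strand and transcripts come from Ensembl 115 on the same build, where 27742 of 45040 matched genes had identical positions. In Ensembl 115, exons of sir-2.4 also share 5 bases with unc-94. Those of ash-2 share 27 bases with Y17G7B.3 and 7 with Y17G7B.20.

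Counts were filtered with filterByExpr, scaled by TMM and tested in edgeR 4.0.16 (R 4.3.3) by the quasi-likelihood F-test with treatment as the only term. The study's thresholds were an FDR under 0.05 and a 2-fold change. Intervals are at 95% from the same fit and cover the spread between 2 libraries per group. The procedure was tested on simulated data in which far fewer genes changed than passed the threshold here. That test therefore does not bear on how the calls depend on the scaling. The genes, the lists and the tests were chosen with earlier results of these data known. Of each pathway list, up to 4 genes with the smallest p under the FDR threshold were named, and of each marker list the 2 most abundant were candidates. Alternatives were other scalings and filters, DESeq2 1.42.0, limma 3.58.1 on log2(FPKM + 0.1) and log2(FPKM + 1), keeping genes that reached 1 FPKM in 2 or more libraries, a replicate block, and each library left out. Protein and DNA sequences were not used here.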

Additional observations from a re-analysis of the deposited data

How the results depend on the processing

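The 4 lower members became 2 under upper quartile normalization, 2 when only library totals were used, 2 with limma on log2(FPKM + 0.1) and 2 on log2(FPKM + 1), and 1 without a filter on low counts, while the 1 higher member became 0 without that filter and 0 with the libraries scaled to the same median. With each library left out, 1 member was higher and from 3 to 4 were lower. The median of all genes shifted from 0.02 to 0.12 with library totals and to -0.11 with the same median. That scaling and expression-dependent offsets were chosen after seeing the data. The deviations of same-numbered libraries from their group means correlated at r = 0.04 over genes, and genes are not independent. No pairing by replicate number was visible in this value, which cannot exclude one. When the replicate number was added as a block, 5 members were lower, the added one being ash-2 (adjusted p = 0.0354 in edgeR's test), and 1 was higher. Rescaling to a median fold change of 0 also put ash-2 past the threshold (adjusted p = 0.0471).

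The sign turned only for members near 0. The log2 fold change of sir-2.3 became 0.056 under upper quartile normalization, 0.0808 under library totals, 0.0077 with no filter, and 0.0791 and 0.0665 with limma on FPKM, and ran from -0.122 to 0.0741 with 1 library left out. That of set-2 became -0.0016 with DESeq2 or its size factors, -0.0117 with a median fold change of 0 and -0.122 with the same median, and ran from -0.048 to 0.067 with 1 library left out. That of rbr-2 became -0.110 with the same median and ran from -0.00085 to 0.042 with 1 library left out. The ratio of set-2 to rbr-2 differed by -0.0795 to 0.0565 with 1 library left out, and that of sir-2.2 to sir-2.3 by 0.206 to 0.492.

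Over all genes, 812 were called higher and 364 lower at 2-fold. Expression-dependent offsets gave 482 and 513, the same median 550 and 512, library totals 1091 and 280, limma on log2(FPKM + 0.1) 956 and 247 and on log2(FPKM + 1) 645 and 182, and no filter 565 and 185. With 1 library left out, 696 to 972 were higher and 298 to 376 lower. The causes of these changes were not tested.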
